A study of Mus musculus with 19 samples.

Results

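The annexins are proteins that bind acidic phospholipids of membranes when calcium rises, through a conserved core of repeats. The 10 family members described here, *Anxa1* to *Anxa9* and *Anxa11*, were picked out by gene symbol, with no threshold on a measured value, and they are 10 of the 46078 genes in the deposited table. All 10 passed the filter on low values in every comparison. *Anxa10* and *Anxa13* complete the mouse family and are described at the end.

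RNA-seq was made from 19 samples of bulk mammary tissue of female mice: 3 MGWT glands, and 4 samples each of MGN glands, MGNP glands, TN tumors and TNP tumors. MMTV-neu is a transgene that expresses *Erbb2* in mammary epithelium, Fsp-Cre expresses Cre under a fibroblast promoter, and p53wm-R172H is a conditional *Trp53* allele that makes wild-type p53 until Cre converts it to the R172H mutant. MGNP glands and TNP tumors carried all of these (MMTV-neu;p53wm-R172H/+;Fsp-Cre), and TN tumors carried MMTV-neu;Fsp-Cre. MGN replicate 1 was MMTV-neu;Fsp-Cre, whereas MGN replicates 2, 3 and 4 were MMTV-neu;p53wm-R172H/+ without Cre, so the MGN group mixed genotypes. MGWT glands were wild type and age-matched, and no ages are given in the sample records. MGN and MGNP glands were taken from tumor-bearing mice at sites without malignant lesions, and all mice except MGWT carried the neu transgene on a mixed strain background. The library names of TNP replicates 1 and 2 share an animal number, so they may not be independent animals.

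Some properties of the libraries touched every comparison. The recovered reads numbered 54677315 to 62645459 in MGWT libraries and 20899152 to 27262440 in all others, so depth and group cannot be told apart for MGWT. *Erbb2*, the driver, had 73426 to 155042 normalized counts in TN and 84389.7 to 117600.0 in TNP, against 1845 to 14718 in MGN, 3966 to 10787 in MGNP and 3826 to 4210.1 in MGWT. *Trp53* had 1243 to 2297 in MGWT, 636 to 764 in MGN, 483 to 1135 in MGNP, 708 to 1554 in TN and 567 to 896 in TNP. Each MGWT gland lay above each MGN and MGNP gland, but gene-level counts cannot separate the *Trp53* alleles. The 14 skeletal muscle markers took 3.181%, 17.6%, 0.1167% and 9.973% of the reads of MGNP replicates 1 to 4, and at most 0.1777% of any other library. The score of 9 white adipocyte markers, a mean of log2(normalized count + 1), was 14.9 to 15.2 in MGN and 13.7 to 15.1 in MGNP but 4.52 to 5.95 in MGWT. In these bulk samples fewer cells of a type and less RNA per cell cannot be told apart.

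Annexins link membranes to each other, to the cytoskeleton and to the S100 proteins, which bind their N-terminal tails. Some also act outside the cell: *Anxa1* is a ligand of formyl peptide receptors, *Anxa2* with *S100a10* gathers plasminogen and its activators at the cell surface, and *Anxa5* binds phosphatidylserine exposed on dying cells. In breast tissue annexins are made by epithelial, stromal and immune cells, so their level in bulk RNA reflects a mixture.

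In the GRCm38 annotation *Anxa7* (chr14:20455260-20480133), *Anxa8* (chr14:34085981-34100571) and *Anxa11* (chr14:25842156-25886804) lie on the same chromosome, as do *Anxa5* (chr3:36448923-36475894) and *Anxa9* (chr3:95296096-95307176). *Anxa1* lies at chr19:20373428-20390944, *Anxa2* at chr9:69453620-69491795, *Anxa3* at chr5:96793339-96845966, *Anxa4* at chr6:86736840-86793584 and *Anxa6* at chr11:54979108-55033445.

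The promoters of *Anxa1* and *Anxa2*, the members with extracellular partners, and of *Anxa8*, the member that differed most between tumors and glands, are shown so that their sequence can be compared. They are the 250 bases before the RefSeq start in GRCm38.p6, written 5′ to 3′ on the strand of the gene. *Anxa1* lies at chr19:20390672-20390921 on the minus strand, *Anxa2* at chr9:69453433-69453682 on the plus strand, and *Anxa8* at chr14:34085729-34085978 on the plus strand. Capitals mark matches, searched on both strands, to TATAAA, to TGANTCA and to GGGCGG, the core letters of a TATA box, an AP-1 site and a GC box.
Anxa1: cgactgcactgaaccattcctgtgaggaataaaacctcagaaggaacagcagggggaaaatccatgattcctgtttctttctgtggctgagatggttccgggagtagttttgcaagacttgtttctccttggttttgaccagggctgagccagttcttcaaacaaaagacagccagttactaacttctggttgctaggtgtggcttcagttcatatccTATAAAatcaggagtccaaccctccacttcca
Anxa2: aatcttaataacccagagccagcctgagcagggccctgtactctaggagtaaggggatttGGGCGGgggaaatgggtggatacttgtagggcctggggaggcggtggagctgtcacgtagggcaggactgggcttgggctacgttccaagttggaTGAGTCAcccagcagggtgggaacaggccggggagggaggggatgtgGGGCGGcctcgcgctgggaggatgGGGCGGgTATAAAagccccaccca
Anxa8: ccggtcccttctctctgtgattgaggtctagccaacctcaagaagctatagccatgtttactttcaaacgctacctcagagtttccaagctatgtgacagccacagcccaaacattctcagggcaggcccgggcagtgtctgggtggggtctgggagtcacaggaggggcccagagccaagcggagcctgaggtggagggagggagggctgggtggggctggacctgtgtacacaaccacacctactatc

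*Anxa1* held TATAAA from 32 to 27 bases upstream of its start and no match to the other motifs. *Anxa2* held TATAAA from 17 to 12 bases upstream, TGAGTCA from 95 to 89 bases upstream and 3 copies of GGGCGG, none of which overlapped another match. *Anxa8* held no match to any of the 3 motifs in this window. Among 32851 RefSeq promoters of the same length, 12.4% held TATAAA, 6.75% held TGANTCA and 32.7% held GGGCGG on either strand. RefSeq entries were found for 8 of the 10 members, and those of *Anxa7* and *Anxa11* also held GC box letters. These matches are descriptions of the sequence and were not tied to any measured difference.

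Levels of different annexins were compared per kilobase of exon, as each member's share of the sum over the 10. *Anxa6*, *Anxa5*, *Anxa2* and *Anxa1* were the 4 highest members in all 11 glands, while *Anxa3* stood above *Anxa2* in TN replicates 2 and 4. *Anxa8*, *Anxa9* and *Anxa11* were the 3 lowest members in every library but MGWT replicate 2. *Anxa1* held 21.8% to 25.7% of the family total in MGWT, 13.0% to 18.9% in MGN, 12.0% to 18.8% in MGNP, 3.15% to 18.4% in TN and 5.11% to 7.11% in TNP. *Anxa6* held 16.8% to 25.2% in MGWT, 23.5% to 29.2% in MGN, 30.2% to 37.1% in MGNP, 15.9% to 51.9% in TN and 46.5% to 48.8% in TNP. *Anxa6* ranked first per kilobase in all 4 MGNP glands and all 4 TNP tumors, and *Anxa5* ranked first in all 4 MGN glands. The sum of the 10 members per kilobase was 9891 to 12316 in MGWT, 13316 to 18381 in MGN, 9621 to 12079.5 in MGNP, 13289.8 to 16066 in TN and 13714 to 19596 in TNP normalized counts. No test was made on shares or sums.

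**Figure D1:**
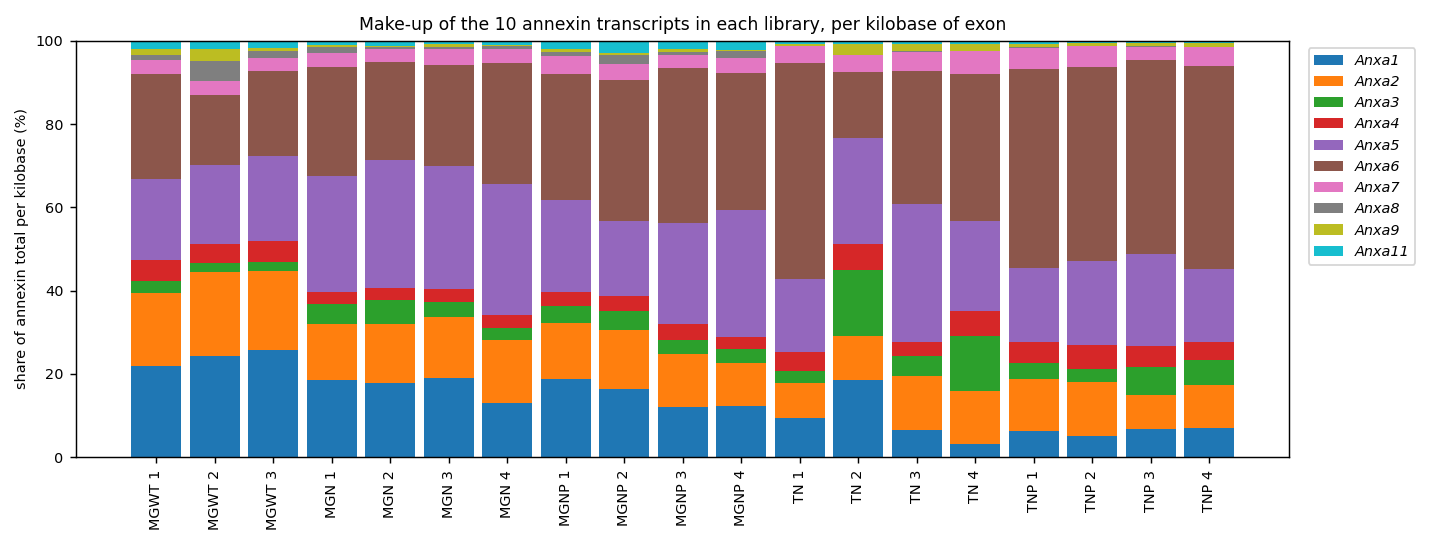
Stacked bars give each annexin's share (percent, vertical axis from 0 to 100) of the family total per kilobase of exon in each of the 19 libraries. *Anxa6* takes between 46.5% and 48.8% in the TNP tumors and between 15.9% and 51.9% in the TN tumors.

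Differences between groups were tested with limma on log2(normalized count + 1), and a gene was called when its Benjamini-Hochberg adjusted p was under 0.05 and its fold at least 2. In MGN against MGWT glands, 2 of 10 annexins were called higher and 1 lower, beside 19.1% of all 19017 genes called higher and 17.9% lower. In MGNP against MGWT glands, 0 were called higher and 1 lower, beside 16.4% and 16.2% of 19065 genes. In TN against MGN, 1 was higher and 1 lower, beside 12.8% and 22.3% of 17950 genes. In TNP against MGNP, 3 were higher and 2 lower, beside 14.7% and 24.0% of 17880 genes. In all 8 tumors against MGWT, 2 were higher and 2 lower, beside 18.8% and 26.5% of 18735 genes. In MGNP against MGN, 0 of 10 annexins and 0 of 18563 genes (0%) were called, and in TNP against TN, 0 of 10 annexins and 0.0421% of 16638 genes. With 10 members, each count rests on a few genes, and the contrasts that follow are those of single members. Groups without overlap were also common over all genes tested. In MGN against MGWT, 4 annexins lay wholly higher and 1 lower, beside 5986 and 5667 of 19017 genes. In MGNP against MGWT these were 2 and 4, beside 5061 and 5317 of 19065. In TN against MGN these were 1 and 1, beside 4082 and 4746 of 17950. In TNP against MGNP these were 4 and 2, beside 4503 and 4907 of 17880. In all tumors against MGWT these were 3 and 2, beside 4731 and 5416 of 18735. The comparisons share groups, so their counts are not independent.

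**Figure D2:**
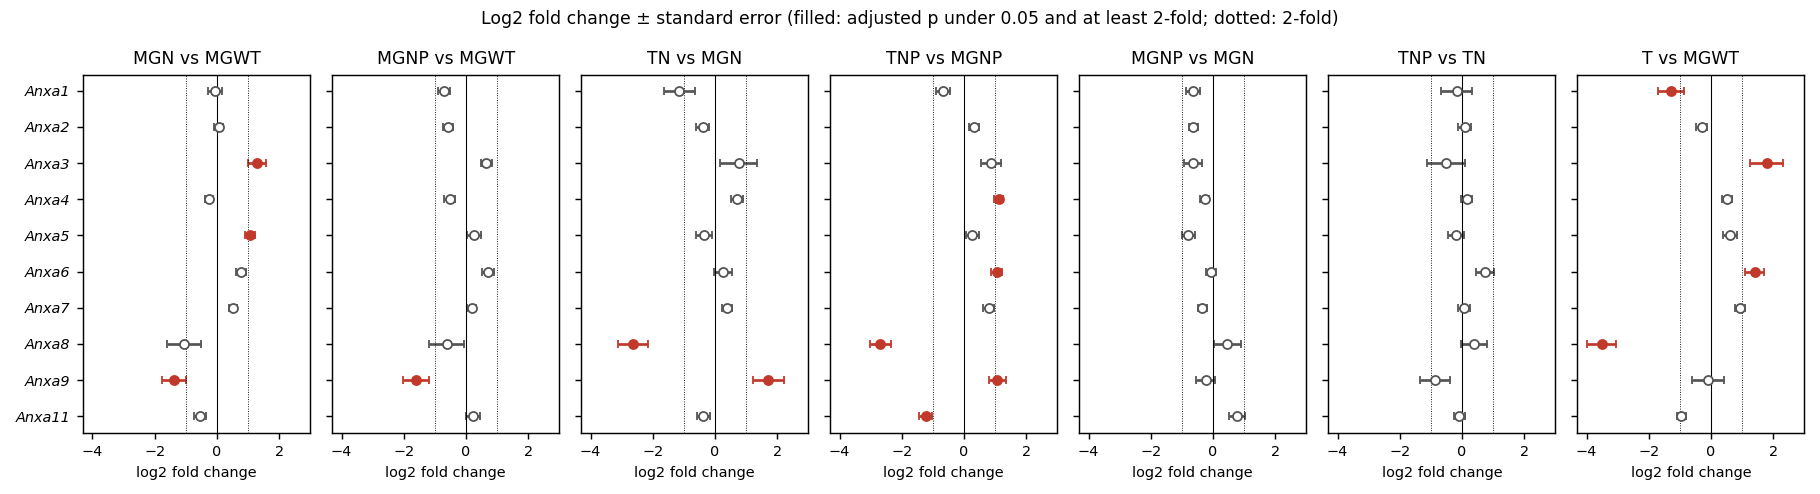
Log2 fold change with its standard error (horizontal axis) for each annexin in 7 comparisons, each fitted on its own groups. Filled points passed the adjusted p and the 2-fold threshold: *Anxa8* lies at -2.64 in TN vs MGN and at -2.70 in TNP vs MGNP, while no point is filled in MGNP vs MGN or TNP vs TN.

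*Anxa8* was the annexin with the largest difference, and it was lower in tumors. This member is known from stratified and basal epithelia. Its normalized counts were 218, 989.9 and 393 in MGWT, 415, 214, 128 and 167 in MGN and 201.25, 457, 184 and 396 in MGNP glands. They were 32.9, 21.1, 72.7 and 22.2 in TN and 40.4, 39.0, 50.7 and 43.7 in TNP tumors. Each tumor lay below each gland, while the 3 gland groups overlapped with each other, as did the tumor groups, so the order of means MGWT, MGNP, MGN, TNP and TN was separated only between glands and tumors. *Anxa8* was 6.23-fold lower in TN than in MGN (log2 fold change -2.64 ± 0.49, SE, limma, adjusted p = 0.00244). It was 6.50-fold lower in TNP than in MGNP (-2.70 ± 0.34, SE, limma, adjusted p = 0.000274), and the exact permutation test gave p = 0.0286 in each of these, the smallest p that 4 against 4 allows. Any gene whose 4 and 4 libraries do not overlap reaches this p, and TNP replicates 1 and 2 counted as separate samples in it. Against MGWT the 8 tumors were 11.4-fold lower (exact permutation p = 0.00606, the smallest for 8 against 3). All 3 calls held in every alternative tried. In MGN against MGWT its difference was -1.07 ± 0.55 and not called (limma, adjusted p = 0.124), but it was called with DESeq2 (-1.21) and without MGWT replicate 1 (-1.58).

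Basal epithelial markers were also lower in tumors than in glands. Of 7 basal markers, 7 were called lower in TN against MGN and 6 in TNP against MGNP. In MGN and in MGNP against MGWT all 7 were called lower as well, whereas *Anxa8* was not called. The list took 0.1827% to 0.2154% of reads in MGWT, 0.02817% to 0.06694% of reads in MGN, 0.01775% to 0.05968% in MGNP, 0.004421% to 0.017% in TN and 0.006492% to 0.01108% in TNP, and 0 of its genes was under 10 normalized counts throughout a group. Of 6 squamous markers, *Ivl*, *Krt1* and *Lor* stayed under 10 normalized counts in every sample. Other lists were lower too in TN against MGN: 9 of 9 white adipocyte, 4 of 4 endothelial, 5 of 5 T cell, 4 of 4 B cell and 5 of 7 fibroblast markers. In TNP against MGNP these were 9 of 9, 4 of 4, 4 of 5, 4 of 4 and 4 of 7. Of 8 luminal markers, 7 were called higher and 1 lower in each of these comparisons. The part of the basal or other markers in the *Anxa8* result was not tested.

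**Figure D3:**
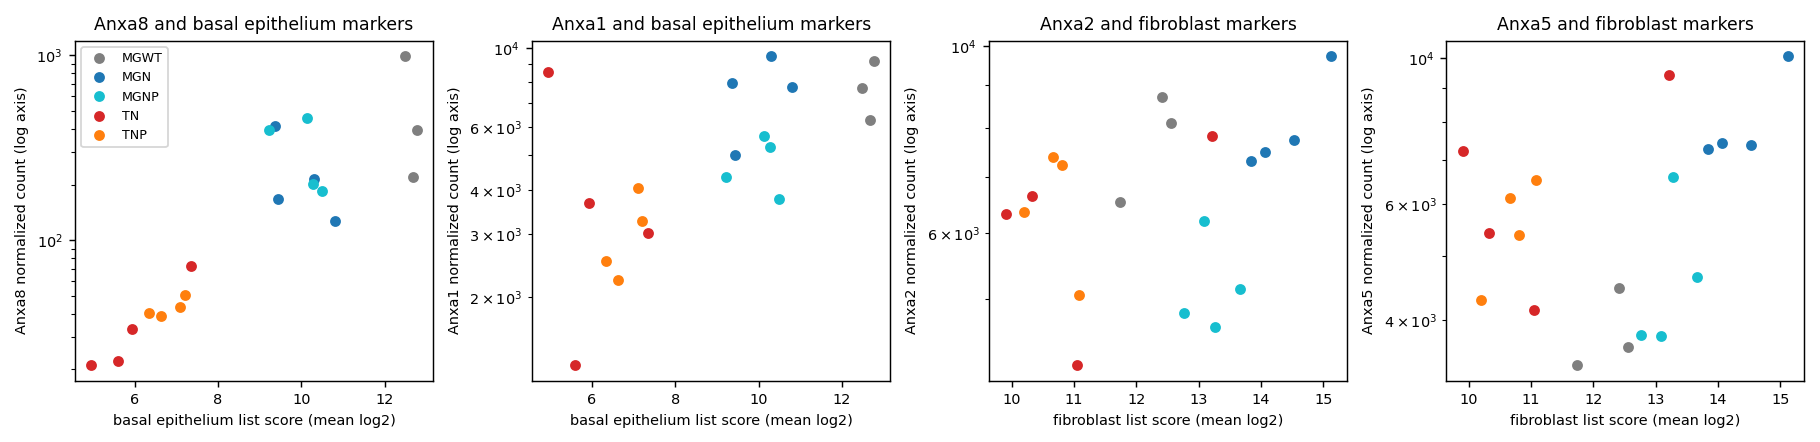
Normalized counts of *Anxa8*, *Anxa1*, *Anxa2* and *Anxa5* (log axis) against the mean log2 score of basal epithelial or fibroblast markers, 1 point per library and 1 color per group. The tumors reach at most a basal score of 7.34 and at most 72.7 *Anxa8* counts, and all glands lie above both.

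*Anxa9* was higher in TN than in MGN and in TNP than in MGNP, and lower in neu glands than in MGWT. It is an atypical annexin whose calcium-binding sites are altered. Its normalized counts were 301, 615 and 204 in MGWT, 153, 94.2, 181 and 106 in MGN and 142, 119.9, 117 and 72.3 in MGNP. They were 150.0, 817, 566 and 467 in TN and 228, 182.98, 207 and 337 in TNP. MGN and MGNP glands were below all MGWT glands, TNP tumors lay above all MGNP glands, and TN replicate 1 fell inside the MGN range. The 8 tumors overlapped with MGWT (-0.10 ± 0.51 log2, SE, limma, adjusted p = 0.879). *Anxa9* was called 2.59-fold lower in MGN than in MGWT (-1.37 ± 0.39 log2, SE, limma, adjusted p = 0.0161) and 3.04-fold lower in MGNP (-1.61 ± 0.41, limma, adjusted p = 0.0158). It was called 3.27-fold higher in TN than in MGN (1.71 ± 0.49, limma, adjusted p = 0.0189) and 2.11-fold higher in TNP than in MGNP (1.08 ± 0.29, limma, adjusted p = 0.0118). The call in MGN against MGWT was lost without MGWT replicate 2 (-0.94), that in TN against MGN without MGN replicate 2 (1.56) or 4 (1.62). That in TNP against MGNP was lost without MGNP replicate 4 (0.88), without TNP replicate 4 (0.90) or without MGNP replicates 2 and 4 together (0.84), and that in MGNP against MGWT with the muscle score as a covariate (-1.27).

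Luminal markers moved in the same comparisons as *Anxa9*. The list of 8 took 0.2635% to 0.2942% of reads in MGWT, 0.04827% to 0.1038% in MGN, 0.02424% to 0.1081% in MGNP, 0.3406% to 0.6346% in TN and 0.3891% to 0.4969% in TNP. All 8 were called lower in MGN and in MGNP than in MGWT. In TN against MGN, 7 of the 8 were called higher and 1 lower, and the same counts came from TNP against MGNP. The part of the luminal markers in the *Anxa9* result was not tested. *Anxa9* also overlaps *Mindy1* on the opposite strand and *6330562C20Rik* on its own, so its reads may include theirs if counting ignored strand or assigned shared reads.

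*Anxa6*, a calcium-dependent scaffold of the plasma membrane and endosomes with a longer core than its relatives, was higher in tumors and neu glands than in MGWT. It had 7303, 5326 and 7326 normalized counts in MGWT, 11338, 12637, 9936 and 11392 in MGN and 8524, 11710.3, 11687 and 11615 in MGNP. They were 20208, 7445, 15029.7 and 14466 in TN and 19198, 20404, 22624 and 28034 in TNP. The TNP tumors exceeded every gland, whereas TN replicate 2 lay below all MGN and MGNP glands. Means fell in the order TNP, TN, MGN, MGNP and MGWT, and the neighbours MGN and MGNP overlapped, as did TN with both MGN and TNP. *Anxa6* was 2.07-fold higher in TNP than in MGNP (1.05 ± 0.18 log2, SE, limma, adjusted p = 0.00136) and 2.63-fold higher in all tumors than in MGWT (1.40 ± 0.32, limma, adjusted p = 0.00227). Without overlap but short of 2-fold, *Anxa6* was also higher than in MGWT in MGN (0.78 ± 0.15, limma, adjusted p = 0.00256) and MGNP glands (0.71 ± 0.18, limma, adjusted p = 0.016). It was 0.25 ± 0.28 in TN against MGN, not called, and 0.73 ± 0.29 in TNP against TN, where the unadjusted limma p was 0.0346 and the adjusted p = 0.682. The TNP against MGNP value fell under 2-fold without MGNP replicate 1 (0.94), without TNP replicate 4 (0.94) and with scaling on reads outside the muscle list (0.99), with adjusted p under 0.05 in each.

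*Anxa4*, found at apical membranes of epithelia, was higher in TN than in MGN and in TNP than in MGNP. Libraries held 2367, 2280.4 and 2956 normalized counts in MGWT, 2016, 2407, 2153 and 1869 in MGN and 1504, 2019.8, 1952 and 1572 in MGNP. They were 2866, 4532, 2661 and 3904 in TN and 3309, 4022, 3879.7 and 3953 in TNP. Each TNP tumor lay above every gland, and each TN tumor lay above every MGN gland. *Anxa4* was 2.16-fold higher in TNP than in MGNP (1.11 ± 0.14 log2, SE, limma, adjusted p = 0.000268), a call held in every alternative tried. In TN against MGN it was 1.62-fold higher (0.70 ± 0.19, limma, adjusted p = 0.0143), short of the 2-fold threshold. Against MGWT, *Anxa4* was -0.53 ± 0.16 in MGNP, short of 2-fold. *Anxa7*, which binds sorcin and *Pdcd6*, was higher in all tumors than in MGWT glands. Its normalized counts were 1915, 2217 and 2289.5 in MGWT, 2904, 3416, 3315 and 2672 in MGN and 2454, 2728, 2021 and 2535 in MGNP. They were 3178, 3952, 4407 and 4745 in TN and 4217, 4476, 3137 and 5190.2 in TNP, and every tumor exceeded every MGWT gland while both tumor groups overlapped with MGN. It was 1.73-fold higher in TNP than in MGNP (0.79 ± 0.17 log2, SE, limma, adjusted p = 0.00493) and 1.92-fold higher in all tumors than in MGWT (0.94 ± 0.16, limma, adjusted p = 0.000283), without reaching 2-fold. Each MGN gland also exceeded every MGWT gland (0.52 ± 0.12, limma, adjusted p = 0.00733).

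**Figure D4:**
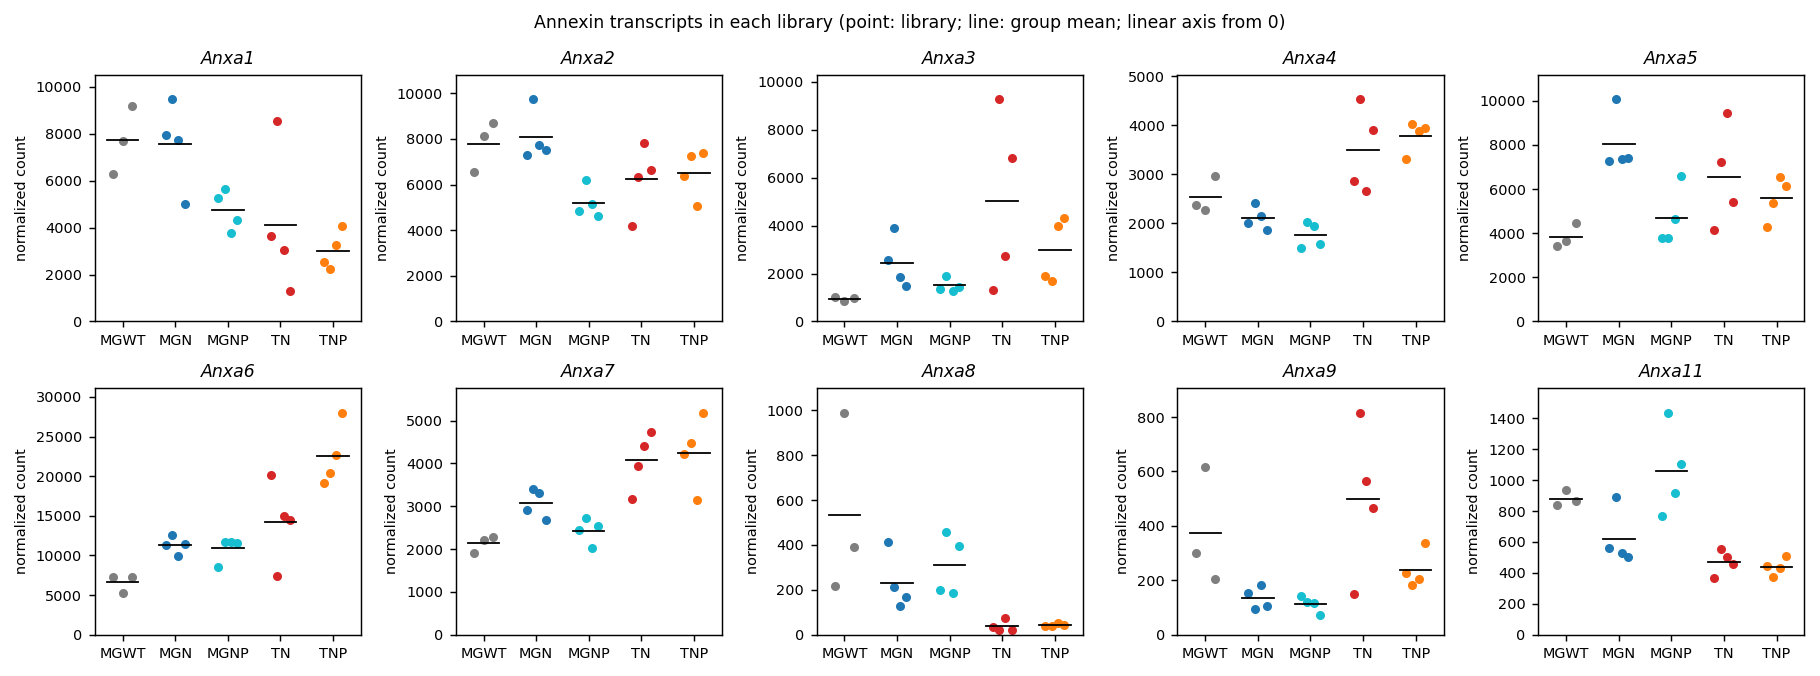
Normalized counts (vertical axes, linear and starting at 0) of the 10 annexins, with 1 point per library and a line at each group mean. The TNP tumors sit at 3309 to 4022 for *Anxa4* and 19198 to 28034 for *Anxa6*, above all glands, and at 39.0 to 50.7 for *Anxa8*, below all glands.

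*Anxa3*, known from neutrophil granules and also made by epithelial cells, was higher in MGN glands and in tumors than in MGWT glands. It had 1000.5, 843 and 995 normalized counts in MGWT, 2582, 3916, 1843 and 1494 in MGN and 1374, 1903, 1272 and 1454 in MGNP. They were 1312, 9273, 2732 and 6840.3 in TN and 1893, 1703, 3982 and 4304 in TNP. Every other library exceeded every MGWT gland, and the TN tumors spread over a 7.06-fold range. *Anxa3* was 2.43-fold higher in MGN than in MGWT (1.28 ± 0.30 log2, SE, limma, adjusted p = 0.00638) and 3.45-fold higher in all tumors (1.79 ± 0.52, limma, adjusted p = 0.00971). In TNP against MGNP it was 0.88 ± 0.32 and under 2-fold (limma, adjusted p = 0.0441), but it was called with TNP replicates 1 and 2 averaged (1.08) and without TNP replicate 1 (1.05) or 2 (1.10). The call in MGN against MGWT was lost when all 5 groups entered a single limma fit (adjusted p = 0.0509). The score of 5 neutrophil markers was 2.58 to 4.17 in MGWT, 4.51 to 6.14 in MGN, 4.23 to 9.43 in MGNP, 3.49 to 4.78 in TN and 3.42 to 4.44 in TNP, and *Ly6g* was under 10 normalized counts throughout all groups but MGNP. MGNP replicate 1 had the highest of these scores, 9.43, and 1374 normalized counts of *Anxa3*. Its part in the *Anxa3* result was not tested.

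*Anxa5*, the phosphatidylserine-binding annexin, was higher in MGN than in MGWT glands. Libraries held 3416, 3639 and 4470.0 normalized counts in MGWT, 7268, 10070.2, 7378 and 7419 in MGN and 3793, 3783, 4647 and 6588 in MGNP. They were 4138, 7214, 9437 and 5429 in TN and 4291, 5379.7, 6524 and 6127 in TNP. Each MGN gland was above every MGWT and MGNP gland, and each tumor group overlapped with the MGNP range. *Anxa5* was 2.08-fold higher in MGN than in MGWT (1.06 ± 0.16 log2, SE, limma, adjusted p = 0.000645). It fell under 2-fold without MGWT replicate 1 (0.98) or MGN replicate 2 (0.95). Of 7 fibroblast markers 5 were also called higher in MGN than in MGWT, as were 5 of 5 macrophage markers. Other lists differed too: 9 of 9 white adipocyte, 4 of 4 brown adipocyte and 11 of 14 skeletal muscle markers were called higher. All 8 luminal and all 7 basal markers were called lower. The part of these lists in the *Anxa5* result was not tested. In MGNP against MGWT *Anxa5* was 0.26 ± 0.22 and not called (limma, adjusted p = 0.359).

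MGNP and MGN glands compare mutant with wild-type p53 in fibroblasts around non-malignant tissue, and 0 annexins were called. *Anxa2*, the plasminogen co-receptor subunit, had 4822, 6201, 5143 and 4638 normalized counts in MGNP and 7298, 9737, 7732 and 7493 in MGN. *Anxa5* had the values given above, and both genes were lower in each MGNP gland than in each MGN gland. These were the only 2 annexins whose groups did not overlap here, beside 6.21% of all genes tested, 4.15% in the lower direction. The differences were -0.63 ± 0.15 log2 for *Anxa2* (SE, limma, adjusted p = 0.305) and -0.80 ± 0.21 for *Anxa5* (limma, adjusted p = 0.327), and the exact permutation p was 0.0286 for each. DESeq2 on the recovered reads gave adjusted p = 0.0043 for *Anxa2* and 0.0331 for *Anxa5*, both under 2-fold, while adjusted p over the alternatives ranged from 0.0043 to 0.554 for *Anxa2* and from 0.0331 to 0.617 for *Anxa5*. Unadjusted limma p was under 0.05 for 5 annexins, beside 10.5% of all genes: *Anxa1* (-0.65 ± 0.22), *Anxa2*, *Anxa5*, *Anxa7* (-0.34 ± 0.14) and *Anxa11* (0.77 ± 0.25). With the added fold threshold, DESeq2 and edgeR called 0 annexins, beside 2.84% of all genes with DESeq2 and 0% with edgeR. The study itself listed *Anxa2* among secretory genes lower in these MGNP glands, from its own DESeq2 test at adjusted p under 0.05. It stated no fold threshold for that comparison. The study selected *Anxa2* from these samples, so its direction here is not independent evidence.

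Fibroblast and muscle markers differed between the same glands. The 7 fibroblast markers took 0.5452% to 1.863% of reads in MGN and 0.2258% to 0.6586% in MGNP, and 5 of the 7 had an unadjusted limma p under 0.05 while 0 were called. All 14 skeletal muscle markers had an unadjusted limma p under 0.05, and each was higher in MGNP. Each of the 9 white adipocyte markers was lower in MGNP, 4 of them with an unadjusted limma p under 0.05 and 0 called. Without MGNP replicates 2 and 4, a choice made after seeing the data, the difference was -0.69 for *Anxa2* and -0.92 for *Anxa5*. MGNP replicate 1, with 3.181% muscle reads, stayed in that fit. The part of the fibroblast and white adipocyte markers was not tested.

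*Anxa2* in the remaining groups had 6534, 8116 and 8705 normalized counts in MGWT, 4178, 6327, 7816 and 6635 in TN and 6358, 7231, 5059 and 7383 in TNP. MGNP glands lay below all MGWT glands (-0.58 ± 0.16 log2, SE, limma, adjusted p = 0.0206), short of 2-fold, and MGN and MGWT overlapped. In the order of means MGN, MGWT, TNP, TN and MGNP, each pair of neighbours overlapped.

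*Anxa1*, the glucocorticoid-induced ligand of formyl peptide receptors, was lower in tumors and in MGNP glands than in MGWT glands. It had 6281, 7691 and 9196 normalized counts in MGWT, 7944, 9473, 7744 and 5021 in MGN and 5275, 5647, 3756 and 4340.1 in MGNP. They were 3662, 8553, 3026 and 1289.6 in TN and 2528, 2228, 3277 and 4055 in TNP. TN replicate 2 was within the MGWT range, and the remaining 7 tumors lay below every MGWT gland. The 8 tumors were 2.44-fold lower (-1.29 ± 0.42 log2, SE, limma, adjusted p = 0.017), a call lost without MGWT replicate 2 (-1.28) or 3 (-1.15). In TN against MGN it was -1.15 ± 0.50, not called with all libraries (limma, adjusted p = 0.0841) and called without TN replicate 2 (-1.60). In TNP against MGNP it was -0.67 ± 0.22 (limma, adjusted p = 0.026), under 2-fold. All MGNP glands lay below all MGWT glands (-0.70 ± 0.20, limma, adjusted p = 0.0225), also under 2-fold.

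*Anxa11*, which binds *Pdcd6* and *S100a6* and tethers RNA granules, was lower in TNP tumors than in MGNP glands. Its normalized counts were 838, 938 and 863 in MGWT, 559, 891, 526 and 503 in MGN and 769.7, 1437, 918 and 1105 in MGNP. They were 369, 557, 502 and 455 in TN and 447, 372, 429.9 and 512 in TNP. All TNP tumors lay below all MGNP glands, and MGNP replicates 2 and 4, the glands with the most muscle reads, held the highest values. MGNP replicate 1, with 3.181% muscle reads, held 769.7, below the 918 of replicate 3, with 0.1167%. *Anxa11* was 2.35-fold lower in TNP than in MGNP (-1.23 ± 0.21 log2, SE, limma, adjusted p = 0.00129), and -0.94 log2 without those 2 glands, which is under 2-fold. With the muscle score as a covariate it was -0.87 (limma, adjusted p = 0.0854). The part of muscle in the *Anxa11* result was not tested. In TN against MGN *Anxa11* was -0.37 ± 0.22, with overlapping groups, and not called (limma, adjusted p = 0.193). In MGN against MGWT it was -0.54 ± 0.20, under 2-fold (limma, adjusted p = 0.0468). Against MGWT the 8 tumors were 1.94-fold lower, without reaching 2-fold (-0.96 ± 0.15 log2, SE, limma, adjusted p = 0.000145), and *Anxa11* passed that threshold without TN replicate 2 (-1.003). The gene *Anxa11os* lies on the opposite strand of *Anxa11*, and whether counting used strand is not given in the sources used here.

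Whether tumor-to-gland differences depended on the fibroblast genotype was tested as an interaction, (TNP minus MGNP) minus (TN minus MGN). No annexin and 0 of 19367 genes (0%) were called with limma, and DESeq2 and edgeR also called 0 annexins, beside 1.70% of all genes with DESeq2 and 0% with edgeR. Unadjusted limma p was under 0.05 for 3 annexins, beside 7.93% of all genes: *Anxa2* (0.71 ± 0.26, SE), *Anxa6* (0.80 ± 0.34) and *Anxa11* (-0.86 ± 0.31), with limma adjusted p = 0.537, 0.585 and 0.529. In TNP against TN, 1 annexin, *Anxa6*, had an unadjusted limma p under 0.05, beside 7.27% of all genes, and 0 had groups that did not overlap, beside 4.21%. DESeq2 called 0.517% of all genes there.

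Differences among the S100 partners were those of single genes. *S100a10*, the light chain of the *Anxa2* complex, had 1796, 1387 and 2221 normalized counts in MGWT, 3387, 4403, 3443 and 3517 in MGN and 1923, 2108, 2338 and 2348 in MGNP. It had 965, 3139.8, 1939 and 1057 in TN and 1286, 1485, 1607 and 1859 in TNP. Each MGN gland exceeded each MGWT and MGNP gland, and each TNP tumor lay below each MGNP gland. *S100a10* was called higher in MGN than in MGWT (1.05 ± 0.17 log2, SE, limma, adjusted p = 0.00117) and lower in TN than in MGN (-1.21 ± 0.35, limma, adjusted p = 0.0188). The first call was lost without MGWT replicate 2 (0.88) or MGN replicate 2 (0.96), and the second without MGN replicate 2 (-1.13) or TN replicate 1 (-0.98). In MGNP against MGN it was -0.75 ± 0.13 and not called (limma, adjusted p = 0.305), while DESeq2 gave adjusted p = 1.71e-05 and the alternatives ranged up to 0.554.

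*S100a11*, a partner of *Anxa1*, fell from MGWT to both kinds of neu gland. It had 1217, 1303 and 1378 normalized counts in MGWT, 553, 818, 594 and 329.6 in MGN, 293, 452, 364 and 325 in MGNP, 262, 974, 728 and 408 in TN and 298, 406, 288 and 408 in TNP. It was called lower in MGN (-1.25 ± 0.27 log2, SE, limma, adjusted p = 0.00453), in MGNP (-1.87 ± 0.18, limma, adjusted p = 0.000367) and in all tumors (-1.60 ± 0.36, limma, adjusted p = 0.00187). *S100a6*, a partner of *Anxa2* and *Anxa11*, was called lower in TN than in MGN (-1.52 ± 0.42 log2, SE, limma, adjusted p = 0.0158) and in TNP than in MGNP (-1.05 ± 0.34, limma, adjusted p = 0.0261), the latter lost with DESeq2, with edgeR and without any of MGNP replicates 1 (-0.998) and 4 (-0.996) and TNP replicates 1 (-0.89), 2 (-0.85) and 3 (-1.06). *S100a4* was scarce, with 24.2 to 33.3 normalized counts in MGN, 8.56 to 53.4 in MGNP, 1.71 to 4.65 in MGWT, 0 to 16.2 in TN and 2.24 to 8.74 in TNP, and it was called higher in MGN (2.77 ± 0.36, limma, adjusted p = 0.00033) and MGNP (2.78 ± 0.65, limma, adjusted p = 0.0113) than in MGWT, the latter lost without MGWT replicate 1 (2.44). It was called lower in TN than in MGN (-3.16 ± 0.77, limma, adjusted p = 0.00878).

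**Figure D5:**
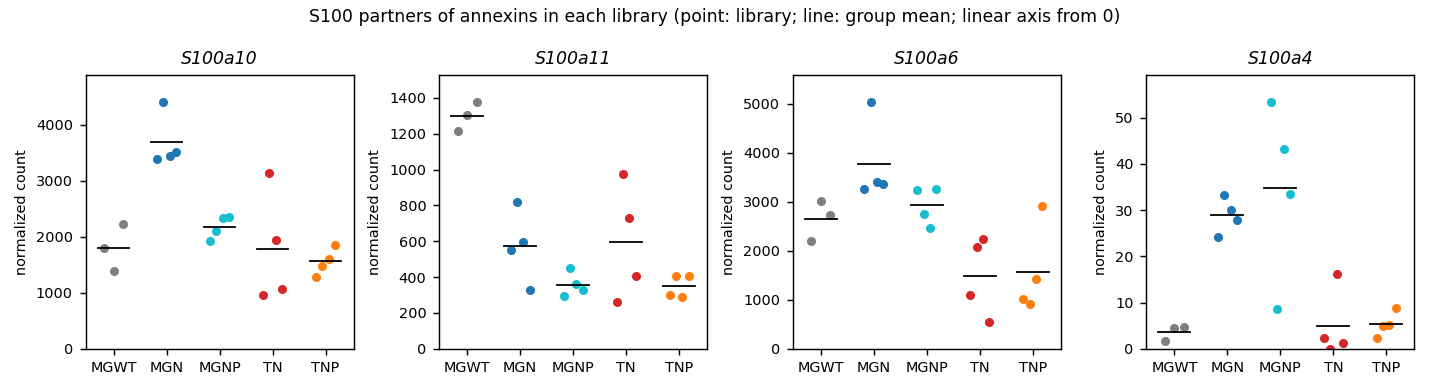
Normalized counts (linear axes from 0) of 4 S100 partners of annexins, with 1 point per library and a line at each group mean. *S100a11* lies at 1217 to 1378 in the MGWT glands and at most at 974 in every other library.

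With the 4 S100 genes included, the partner lists held 28 genes in all, 23 to 26 of them tested depending on the comparison. In TN against MGN, 0 were called higher and 8 lower of 24, beside 12.8% and 22.3% of all genes. In TNP against MGNP, 2 were called higher and 9 lower of 23, beside 14.7% and 24.0%. The median log2 fold change over these partners was -0.52 in TN against MGN and -0.29 in TNP against MGNP, beside -0.05 and -0.07 over all genes tested. In MGN against MGWT, 7 were called higher and 3 lower of 24, beside 19.1% and 17.9% of all genes.

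Some membrane repair genes were lower in tumors. *Ahnak*, a scaffold recruited by the *Anxa2* complex, had 142499 to 199422 normalized counts in MGN and 24539.6 to 73737 in TN and was called lower (-2.15 ± 0.37 log2, SE, limma, adjusted p = 0.00161). *Dysf*, which encodes the repair protein dysferlin, was called lower in TN than in MGN (-2.31 ± 0.31, limma, adjusted p = 0.000581) and in TNP than in MGNP (-2.73 ± 0.37, limma, adjusted p = 0.000418). Of the membrane repair list, 3 of 6 tested genes were called lower in TN against MGN, beside 22.3% of all genes, and 4 lower and 1 higher of 6 in TNP against MGNP, beside 24.0% lower and 14.7% higher. The gene called higher was *Capns1*, a calpain subunit named here after its value was seen. *Dysf*, *Cav3* and *Trim72* are also muscle genes, and the muscle markers ran high in MGNP: *Trim72* had 564, 4618, 21.7 and 2708 normalized counts in the 4 MGNP glands and was called lower in TNP (-4.56 ± 1.46, limma, adjusted p = 0.026). That call was lost without MGNP replicate 2 (-3.60) or 4 (-3.86), or TNP replicate 1 (-4.59), 3 (-4.62) or 4 (-4.31). Without MGNP replicates 2 and 4 the TNP against MGNP difference of *Trim72* was -2.07 and not called. MGWT glands, with 0.003141% to 0.006288% muscle reads, held 151 to 235 normalized counts of *Trim72*, above every MGN gland. Against MGWT, *Trim72* was called lower in MGN (-2.86, limma, adjusted p = 0.00284) and in all tumors (-2.93, limma, adjusted p = 0.00801).

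Plasminogen activators were lower in TN than in MGN and in TNP than in MGNP. *Plat*, the tissue activator that binds the *Anxa2* complex, was called lower in TN (-2.18 ± 0.48 log2, SE, limma, adjusted p = 0.00549) and TNP (-1.16 ± 0.24, limma, adjusted p = 0.00358). *Plau*, the urokinase activator, was called lower in TN (-1.56 ± 0.36, limma, adjusted p = 0.00651) and TNP (-1.33 ± 0.32, limma, adjusted p = 0.0074), and higher in MGN than in MGWT (1.39 ± 0.23, limma, adjusted p = 0.00131). In TNP against MGNP, both lost their call without MGNP replicates 2 and 4 (*Plat* -0.95, *Plau* -1.14). *Plaur*, the urokinase receptor, was called lower in MGN than in MGWT (-1.61 ± 0.26, limma, adjusted p = 0.00112) and in all tumors than in MGWT (-1.97 ± 0.30, limma, adjusted p = 0.000131).

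Among the penta-EF-hand and ESCRT partners, *Pdcd6*, which binds *Anxa7* and *Anxa11*, was called higher in TNP than in MGNP (1.05 ± 0.11 log2, SE, limma, adjusted p = 0.000126), a call lost without MGNP replicate 2 (0.99) or without MGNP replicates 2 and 4 (0.98). *Pdcd6ip*, also called Alix, was called lower in MGNP than in MGWT (-1.05 ± 0.12, limma, adjusted p = 0.000725), a call lost without MGWT replicate 3 (-0.98). *Ano6*, which exposes phosphatidylserine, was called lower in all tumors than in MGWT (-1.01 ± 0.17, limma, adjusted p = 0.00023), lost without MGWT replicate 3 (-0.99), TN replicate 1 (-0.997), TNP replicate 1 (-0.95) or TNP replicate 2 (-0.97). The formyl peptide receptors had few reads. *Fpr2*, which binds *Anxa1*, had 203, 8.56, 36.8 and 19.4 normalized counts in the 4 MGNP glands and 5.61, 3.66, 10.4 and 4.99 in the 4 TNP tumors. It was called lower in TNP (-2.37 ± 0.85 log2, SE, limma, adjusted p = 0.0405), but not without MGNP replicate 1 (-1.52), its highest library, nor without MGNP replicate 3 (-2.33) or any single TNP replicate (TNP replicate 1, -2.36, 2, -2.19, 3, -2.62, and 4, -2.31).

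Variation among members within groups was described by correlating the deviations from the group mean over the 19 libraries. All members were measured in the same libraries, so differences in depth and tissue composition between libraries enter all of them. *Anxa2* and *Anxa7* deviated together (Pearson r = 0.800), as did *Anxa3* and *Anxa4* (0.704) and *Anxa3* and *Anxa11* (0.629), while *Anxa6* and *Anxa9* deviated in opposite directions (-0.665). Over the same 19 libraries, among 15868 genes tested in every comparison, the gene most like an annexin by Pearson r of log2 values was *Ackr3* for *Anxa8* (0.938), *Dcakd* for *Anxa4* (0.953) and *Eid1* for *Anxa7* (0.932). It was *Akr1a1* for *Anxa6* (0.931), *Ksr1* for *Anxa11* (0.926) and *Washc5* for *Anxa3* (0.912). For *Anxa1* it was *Cdk14* (0.896), for *Anxa2* *Cyb5r3* (0.820) and for *Anxa5* *Serpinh1* (0.810). These values follow the group differences that all libraries share and carry no p.

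*Anxa10* and *Anxa13* were nearly absent from all samples. *Anxa10* had 1 normalized count in MGN replicate 2 and 0 in every other library, and *Anxa13* had at most 2.85 in any library. Neither passed the filter on low values, so neither was tested.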

How the data were processed

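RNA-seq of 19 mouse mammary samples was analysed from a table of 46078 genes. The authors deposited the values as a signal, normalized counts, which are reads divided by a DESeq2 size factor, after alignment of 75-base paired reads with TopHat2 2.1.1 to GRCm38 per the labels and methods. The counting tool, the annotation and the use of strand are not given in the sources used here. The labels name a total RNA library kit and the methods an mRNA kit. Symbols came from GENCODE vM21, which matched 45229 of the 46078 IDs. Low values were whole multiples of a fixed step, so reads were recovered (tolerance 0.05), with 100% of values whole.

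Genes with at least 10 normalized counts in as many samples as the smaller group were tested on log2(normalized count + 1), pseudocount 1, with limma 3.58.1 (trend, the 2 groups compared only) in R 4.3.3, with Benjamini-Hochberg adjustment over all genes tested. This replaced the study's DESeq2 test as the main test, because the deposited unit was not a count. DESeq2 could still be run on the recovered reads, as an alternative. The choice mattered in MGNP against MGN, where limma called 0% of genes and DESeq2 2.84%. A gene was called at adjusted p under 0.05 and at least 2-fold. Exact permutation tests were two-sided. Alternatives were pseudocounts 0.5 and 10, no filter, no fold threshold, DESeq2 1.42.0 and edgeR 4.0.16 on recovered reads, TMM scaling, scaling on reads outside the muscle list, a single fit of all 5 groups, a replicate block, TNP replicates 1 and 2 averaged, the muscle score as a covariate and leaving out each library. Scripts were tested on simulated data.

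The 10 members were all named, the 4 S100 partners always, and from each other partner list at most the 2 genes with the largest change among those called in a comparison. The family rule is a list of symbols that uses no value, but the family and the lists were chosen with earlier results of these data known. Replicates are separate samples per the labels, and p-values measure the spread between them, which may be partly technical where samples share an animal. The scale was normalized signal, so depth limits scarce genes most. The gene most similar to Anxa9 is not reported here.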

Additional observations from a re-analysis of the deposited data

Results flagged for a closer look

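In 3 of 40 gene-by-group sets of 4 libraries, 1 library stood apart from the other 3 by more than the 95% limit of the Dixon gap test, and chance alone marks about 5% of such sets. Anxa5 had 10070.2 normalized counts in MGN replicate 2, against 7267.72 to 7419.24 in the other MGN glands. Anxa11 had 890.709 normalized counts in MGN replicate 2, against 502.581 to 559.153 in the other MGN glands. Anxa6 had 8523.91 normalized counts in MGNP replicate 1, against 11615.2 to 11710.3 in the other MGNP glands.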

How the results depend on the processing

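Of 1650 member values recomputed under alternatives, 1567 kept their direction and their side of the threshold, 20 lost a call, 28 gained one, 35 changed sign, and 0 sign changes were of a called value. The cause of these changes was not tested. Without the fold threshold the annexins called higher numbered 4 in MGN vs MGWT, 2 in MGNP vs MGWT, 2 in TN vs MGN, 5 in TNP vs MGNP and 5 in tumors vs MGWT, and lower 2 in MGN vs MGWT and 4 in MGNP vs MGWT. In the same order, the genes called higher were 5697 of 19017, 4268 of 19065, 4217 of 17950, 4689 of 17880 and 5626 of 18735. Those called lower were 5544 of 19017 in MGN vs MGWT and 4585 of 19065 in MGNP vs MGWT. DESeq2 called 2 lower in MGN vs MGWT, beside 3331 of all 19017 genes. The single fit of all groups called 1 higher in MGN vs MGWT, beside 3227 of 19017 genes, and 2 lower in TN vs MGN, beside 4175 of 17950. The muscle covariate left 0 lower in MGNP vs MGWT and 1 lower in TNP vs MGNP, as did leaving out MGNP 2 and 4 (1), a setting chosen after seeing the data. The covariate fits called 1289 of 19065 and 2691 of 17880 genes lower. Leaving out MGNP 2 and 4 gave 4556 of 18934 lower in TNP vs MGNP. Leaving out 1 library gave 1 to 2 higher and 0 to 2 lower in MGN vs MGWT, 0 to 1 higher and 1 to 2 lower in TN vs MGN, 1 to 4 higher in TNP vs MGNP and 1 to 3 lower in tumors vs MGWT. Over all genes, the same fits called 3432 to 3640 higher and 3114 to 3434 lower in MGN vs MGWT. They called 2083 to 2341 higher and 3661 to 4419 lower in TN vs MGN. In TNP vs MGNP 2401 to 2813 were higher, and in tumors vs MGWT 4526 to 4989 were lower.

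Replicate numbers did not pair the samples: same-numbered samples deviated with r from -0.24 to 0.29, and 2 of 36 pairs exceeded 0.1. With the replicate block 0 annexins were lower in MGN vs MGWT, 2 in TN vs MGN and 1 in tumors vs MGWT, and Anxa1 in MGN vs MGWT was 0.131. Over all genes the block called 3248 of 19017, 3774 of 17950 and 4784 of 18735 lower in these comparisons. The calls of Anxa9 in MGN vs MGWT (-1.28, limma, adjusted p = 0.0685) and Anxa1 in tumors vs MGWT (-1.14, limma, adjusted p = 0.0556) were lost with the block, and Anxa1 in TN vs MGN (-1.15, limma, adjusted p = 0.0252) was gained.

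Signs also changed as follows. With scaling on reads outside the muscle list, the log2 difference was 0.0476 for Anxa1 in MGN vs MGWT and -0.0216 for S100a4 in MGNP vs MGN. When muscle score entered the fit, the log2 difference was -0.434 for Anxa11 in MGNP vs MGWT, -0.354 for Anxa7 in MGNP vs MGWT, -4.87 for Cav3 in MGNP vs MGWT, -0.205 for Dysf in MGNP vs MGWT, -0.226 for S100a6 in MGNP vs MGWT, 0.125 for S100a11 in TNP vs MGNP, 0.204 for Trim72 in TNP vs MGNP, -0.42 for Anxa8 in MGNP vs MGN and 0.895 for Anxa8 in the interaction. Without MGNP replicates 2 and 4, the log2 difference was -0.0634 for Anxa11 in MGNP vs MGWT, 0.082 for S100a11 in TNP vs MGNP, -0.116 for Anxa8 in MGNP vs MGN and 0.51 for Anxa8 in the interaction. With DESeq2, the log2 difference was 0.0483 for S100a11 in TN vs MGN, -0.0504 for Anxa3 in the interaction, -0.082 for S100a11 in the interaction and -0.201 for S100a4 in the interaction. With edgeR, the log2 difference was 0.0501 for S100a11 in TN vs MGN, 0.0197 for Anxa9 in tumors vs MGWT, -0.0294 for Anxa3 in the interaction, -0.0613 for S100a11 in the interaction and -0.201 for S100a4 in the interaction. With TMM scaling, the log2 difference was 0.0318 for S100a11 in TN vs MGN and 0.019 for S100a11 in TNP vs MGNP. With TNP replicates 1 and 2 averaged, the log2 difference was 0.023 for S100a10 in TNP vs TN. Over the libraries left out in turn, sign changes gave ranges of -0.193 to 0.131 for Anxa1 in MGN vs MGWT, -0.0694 to 0.137 for Anxa2 in MGN vs MGWT, -0.352 to 0.278 for S100a11 in TN vs MGN, -0.125 to 0.0835 for S100a11 in TNP vs MGNP, -0.126 to 0.0485 for Anxa6 in MGNP vs MGN, -0.277 to 0.559 for S100a4 in MGNP vs MGN, -0.632 to 0.277 for Anxa1 in TNP vs TN, -0.0995 to 0.202 for Anxa2 in TNP vs TN, -0.381 to 0.0156 for Anxa5 in TNP vs TN, -0.0571 to 0.195 for Anxa7 in TNP vs TN, -0.267 to 0.300 for S100a10 in TNP vs TN, -0.292 to 0.389 for S100a6 in TNP vs TN, -0.454 to 0.34 for Anxa9 in tumors vs MGWT, -0.401 to 0.539 for Anxa3 in the interaction, -0.39 to 0.317 for Anxa8 in the interaction and -0.312 to 0.317 for S100a11 in the interaction.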
